A study of Rattus norvegicus with 4 samples.

Results

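The 8 interferon regulatory factors Irf1, Irf2, Irf3, Irf4, Irf5, Irf7, Irf8 and Irf9 were followed in NR8383 cells, an established rat alveolar macrophage line. They were found on the arrays by matching the accession of each probe to its RefSeq symbol. Among the 16500 named genes this gave 8 genes, read by 12 of 45280 probes on 22 spots of each array. The study held a single group, which the sample titles name as a fetal bovine serum control. The titles of all samples add the letters ALI, which the labels do not spell out and which are not interpreted here. Cells that had passed 20 passages were grown with 15% serum and seeded for 48 h. They were kept for 4 h in DMEM with 10% fetal bovine serum, and each of 4 biological replicates was hybridised to a one-colour array of its own. No treated or mutant cells were analysed here, so no condition could be compared with another, and the results concern which factors were measured, by which probes, and how far the replicates agreed. The line was derived from a normal animal by lung lavage and grows partly attached and partly floating, so the values are those of 1 line and not of macrophages in a lung.

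Interferon regulatory factors are transcription factors that bind, through a conserved tryptophan-rich domain, to promoter elements called interferon-stimulated response elements (ISRE). Irf3, Irf7 and Irf5 lie downstream of the sensors of viral and bacterial material, and the first pair drives transcription of the type I interferon genes. Irf1, Irf2 and Irf9 act in the response to interferon itself, whereas Irf4 and Irf8 are lineage factors of lymphoid and myeloid cells that bind DNA together with the Ets factor PU.1, the product of Spi1. In macrophages several of them are themselves induced by interferon, through an ISRE or through a gamma-activated site (GAS).

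Promoters of 7 members were present in the RefSeq promoter table (GRCr8 assembly), each with 250 bases before and 50 bases after the start of the gene. Irf2 was not matched. Both strands were searched for the ISRE core, GAAA and GAAA with 2 free bases between them, and for the GAS core TTCNNNGAA, which reads the same on both strands, and 4 of the 7 promoters held a match. These 4 are shown because they mark which members carry an interferon-response motif next to their start, in lower case with the matched bases in capitals, 5′ to 3′ along the gene. Irf7 is shown over the whole 300 bases, at chr1:205799974-205800273 on the minus strand. The Irf1 stretch lies at chr10:38417778-38417816, the Irf9 stretch at chr15:33065722-33065760 and the Irf8 stretch at chr19:65699089-65699146, all on the plus strand.
Irf7: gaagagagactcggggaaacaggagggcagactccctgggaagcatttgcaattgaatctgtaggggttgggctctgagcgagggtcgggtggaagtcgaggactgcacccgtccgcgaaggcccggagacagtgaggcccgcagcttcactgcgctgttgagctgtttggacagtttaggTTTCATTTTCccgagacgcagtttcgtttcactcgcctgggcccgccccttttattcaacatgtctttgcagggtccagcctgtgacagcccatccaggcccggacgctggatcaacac
Irf1: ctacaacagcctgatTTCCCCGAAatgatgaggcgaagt
Irf9: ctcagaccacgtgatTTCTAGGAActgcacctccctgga
Irf8: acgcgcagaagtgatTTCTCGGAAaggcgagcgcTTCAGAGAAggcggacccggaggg

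The match in Irf7 was an ISRE core read on the opposite strand, starting at position -69 from the start of the gene. The other matches were GAS cores, at -142 in Irf1, at -99 in Irf9, and at -180 and -161 in Irf8. The windows of Irf3, Irf5 and Irf4 held neither core. Of all 33469 promoters of the table, 3.92% held the ISRE core and 8.87% the GAS core. A match describes the letters of a window and does not show that a protein binds there.

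Levels are given as the log2 processed signal minus the 75th percentile of log2 signal on the same array, so that 0 is the signal below which 75% of probes lay. Probes differ in how strongly they respond, so no gene's level is ranked against that of another gene. A gene was called detected when at least 1 of its probes was flagged well above background on all 4 arrays. Replicate 1 was the dimmest array, with a 75th percentile of 83.4 where the others had 112 to 167, and the share of spots well above background was lowest on replicate 1 (50.9%) and highest on replicate 4 (58.9%). Depth in reads does not apply to arrays, and their number limits the precision. The tissue label was checked against markers. Of 7 measured macrophage markers all were detected, among them Cd68 at 7.44 on average and Spi1 at 3.78. Of 27 measured markers of B, plasma, T and NK, dendritic, epithelial, fibroblast and neutrophil cells 4 were detected, namely Pax5, Xbp1, Cd3d and Clec9a, and no marker of the last 3 types was.

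All members but Irf8 were detected on every array, that is 7 of 8, against 53.1% of all named genes. No member was below that call on all 4 arrays, as 34.4% of named genes were. By the less strict flag for a positive and significant signal on every array 7 members passed, against 66.9% of named genes. The same 7 lay above the negative control spots in limma's test fitted on all probes, which called 69.2% of all named genes, with Benjamini-Hochberg adjusted p between 3.8e-08 for Irf3 and 2.58e-07 for Irf4. Irf8 missed the threshold in that test (limma, adjusted p = 0.0541). The 12 probes were less uniform than the 8 genes: of the 4 genes with more than 1 probe, Irf2 and Irf4 had probes on both sides of the detection call, as did 25.5% of all 3630 named genes with several probes.

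**Figure D1:**
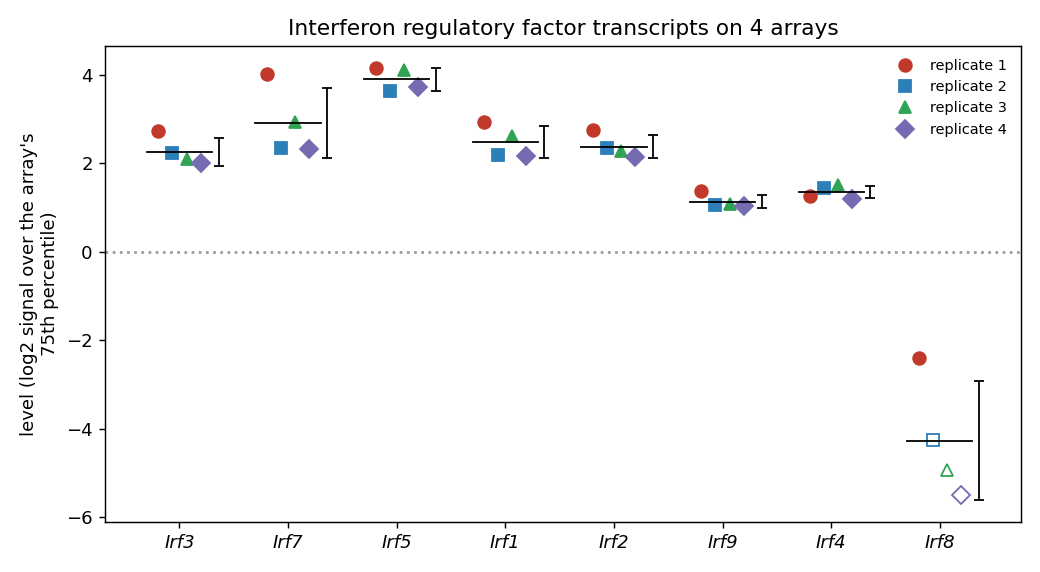
Level of each member on each array (log2 processed signal over the array's 75th percentile), with a bar at the mean of 4 arrays and the SD drawn beside it. Filled symbols are arrays on which the gene was well above background, and open symbols those on which it was not. Heights of different genes are not comparable. Irf7 has its highest value on replicate 1, and Irf8 is filled on replicate 1 alone.

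Among the factors that respond to sensors of infection, Irf3 is the one present before infection in most cells and activated there by phosphorylation. It lay at 2.72, 2.22, 2.09 and 2.00 on replicates 1 to 4, a mean of 2.26 ± 0.32 (SD, n = 4). Replicates 2 to 4 lay close together, with an SD of 0.11 among them, and replicate 1 lay above them. Irf3 was the member with the most spots, since 1 of its 2 probes was printed 10 times. The median signal of that probe over the spots used was 1877, 1650, 1587 and 2041 on replicates 1 to 4. Its spots on 1 array had an SD of 0.056 to 0.13 on the log2 scale, a technical spread that leaves out differences between samples. The other Irf3 probe, on 1 spot, gave signals of 161, 165, 181 and 218, with replicate 1 the lowest. The mean level was 3.91 for the probe printed 10 times and 0.60 for the other, so the level of Irf3 averages unlike values. After scaling both probes were highest on replicate 1. The SD of Irf3 between arrays was 0.32 after scaling and 0.16 before it.

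Irf7, which interferon itself induces and which amplifies type I interferon production, varied most between arrays among the detected members. On replicates 1 to 4 it gave processed signals of 1336 ± 134, 572 ± 57.3, 967 ± 96.7 and 840.0 ± 84.0, where the error is the scanner software's estimate for the 1 spot. On the scaled level these became 4.00, 2.35, 2.94 and 2.33, with a mean of 2.90 ± 0.78 (SD, n = 4). Replicate 1 was the highest on both scales, also before any scaling. It lay 1.46 above the mean of the other arrays, which corresponds to 2.76-fold, and few detected genes deviated by more on that array (percentile 98.97 of 8769 genes). The SD of Irf7 was above that of 97.9% of detected genes. Without replicate 1 it was 0.34.

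Irf5, which couples Toll-like receptors to inflammatory cytokine genes and is known as a factor of macrophages with an inflammatory profile, lay at 4.14, 3.64, 4.10 and 3.71 (3.90 ± 0.26, SD, n = 4). Its replicates formed no single outlier: replicates 1 and 3 were close together, and so were replicates 2 and 4. It was far from background, at 413 to 678 times the 95th percentile of the negative controls.

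Of the factors of the interferon response, Irf1 is an interferon-induced activator needed for many interferon-gamma targets. It lay at 2.93, 2.18, 2.62 and 2.17 (2.48 ± 0.37, SD, n = 4). Replicates 1 and 3 were again above replicates 2 and 4, as for Irf5 and Irf7. Before scaling this order was not seen for Irf1, whose signal of 633 on replicate 1 lay between 507 on replicate 2 and 754 and 779 on replicates 4 and 3, nor for Irf5, whose signals were 1472, 1394, 2169 and 2190.

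Irf2, which competes with Irf1 for the same sites and is mostly known as its antagonist, was read by 2 probes that did not give the same call. The probe to a predicted transcript record gave levels of 2.75, 2.34, 2.28 and 2.13 (2.37 ± 0.26, SD, n = 4), with replicate 1 the highest. The probe to the curated record was well above background on no array. Relative to the negative control level its signal was 0.92, 2.31, 0.92 and 0.99 on replicates 1 to 4, and it did not pass limma's test (adjusted p = 0.297). The detection of Irf2 therefore rested on 1 probe.

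Irf9, a DNA-binding subunit of the transcription complex that forms after type I interferon, had 2 detected probes that did not vary alike. The probe to the predicted record read 3.00 on replicate 1 and 2.27, 2.36 and 2.17 on the others, which is 0.73 above their mean. The probe to the curated record read -0.27 on replicate 1 and -0.17, -0.20 and -0.09 on the others, which is -0.12 from their mean. Their average gave Irf9 a level of 1.36, 1.05, 1.08 and 1.04 (1.13 ± 0.15, SD, n = 4). The higher average on replicate 1 thus came from 1 of its 2 probes.

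**Figure D2:**
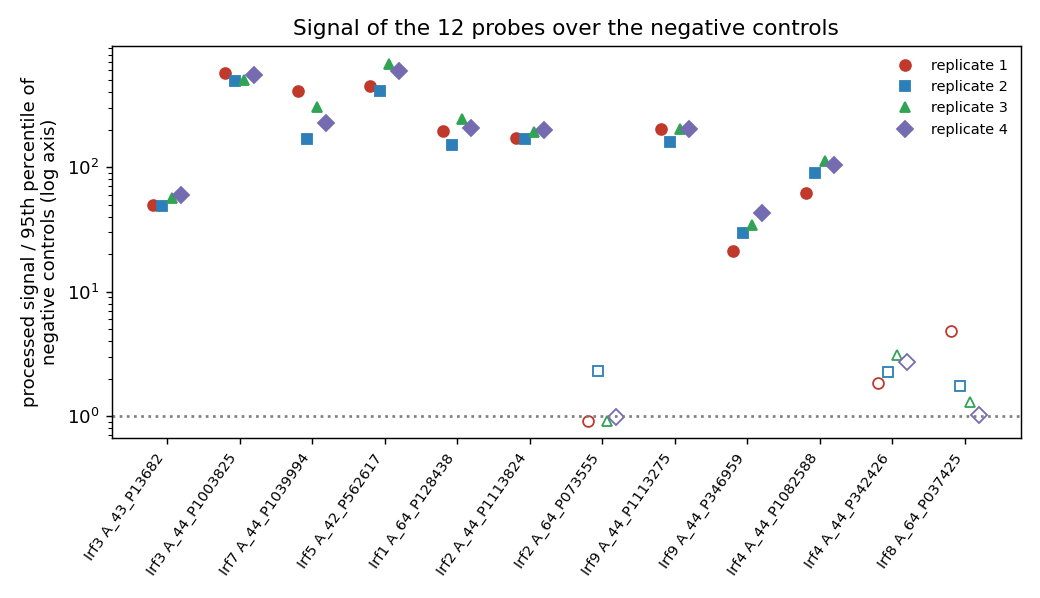
Processed signal of each of the 12 probes divided by the 95th percentile of the negative control spots of the same array (log axis), 1 symbol per array, with the dotted line at 1. Filled symbols are probes well above background on all 4 arrays. The second probes of Irf2 and Irf4 and the only probe of Irf8 lie between 0.92 and 4.86, whereas the other 9 probes lie between 21.1 and 678.

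Of the lineage factors, Irf4 is required for plasma cells and lymphocyte activation and takes part in alternative activation of macrophages. It was detected by 1 of its 2 probes, which was printed on 2 spots and read 1.27, 1.43, 1.502 and 1.19 (1.35 ± 0.14, SD, n = 4). Among detected members Irf4 alone was not raised on replicate 1 (deviation -0.11), and its SD was larger than that of 22.9% of detected genes. On replicate 1 its 2 spots differed, with signals of 160.0 and 252, a spot SD of 0.46 on the log2 scale, so the value of that array was less precise than the others. The other Irf4 probe, made to the same transcript record, was well above background on no array but above negative controls in limma's test, by 1.29 ± 0.18 (SE) on the log2 scale.

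Irf8, a factor required for the development of monocytes and dendritic cells from their precursors, was the exception of the family. Its only probe, on a single spot, gave signals of 15.9 ± 3.26, 5.89 ± 2.45, 4.18 ± 2.97 and 3.73 ± 3.75 on replicates 1 to 4. It was flagged well above background on replicate 1 and on no other array. On replicate 4 the signal was as large as its own error, and the negative controls there had a 95th percentile of 3.68. The scaled levels were -2.39, -4.25, -4.92 and -5.49, of which the last 3 come from signals not well above background.

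The surface around the Irf8 spot differed between arrays. Around each member's spot, the detected spots within 10 rows and 5 columns were compared with the same spots on the other arrays. Around Irf8 the median deviation of 62 such spots was 0.76, 0.86, -0.13 and -1.30 on replicates 1 to 4. Around every other member's spots the medians stayed between -0.31 and 0.39. The spot of Irf1 had neighbours at 0.26 on replicate 1. With the neighbours' median taken off, the deviation on replicate 1 was 0.34 instead of 0.60 for Irf1. The median over the detected members was 0.37 instead of 0.50. Without replicate 4 Irf8 passed limma's test (adjusted p = 0.0302), and without each other replicate the adjusted p was between 0.0565 and 0.124. Against the 99th percentile of the negative controls, which was 60.4 on replicate 4, the other 7 members passed and Irf8 did not (limma, adjusted p = 0.973). The difference of replicate 1 from the others was 2.49 as measured, 1.73 with the neighbours' median taken off and 0.57 after normexp correction, and since the other 3 signals were not well above background none of these is a measured fold. Whether Irf8 transcripts were above background on replicate 4 was not detectable at this spot.

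**Figure D3:**
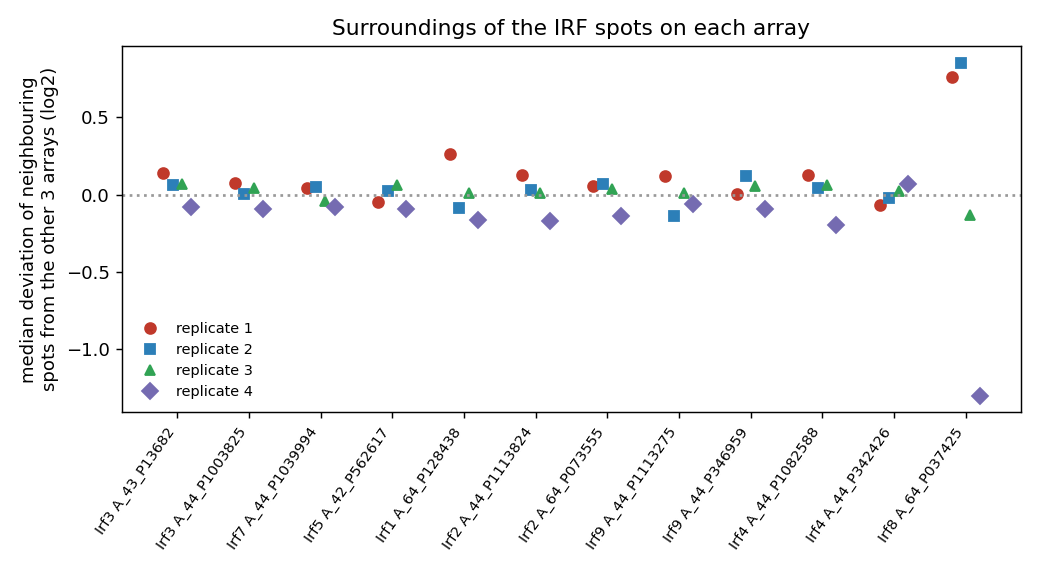
Median deviation of detected spots within 10 rows and 5 columns of each member probe (mean over its spots) from the other 3 arrays, in log2 units, 1 symbol per array. The surroundings of the Irf8 spot lie at -1.30 on replicate 4 and at 0.76 and 0.86 on replicates 1 and 2. The other probes lie closer to 0, among them Irf1 at 0.26 on replicate 1.

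Across the 7 detected members the median SD between arrays was 0.26, beside 0.24 for all 8769 detected genes. Without replicate 1 the medians were 0.16 and 0.15. Of the 7 members 6 lay on replicate 1 above the range of the other arrays, against 42.3% of all detected genes, where 75.1% lay outside that range on either side. The median deviation of the members on replicate 1 was 0.50, against 0.071 for all detected genes, and the values ran from -0.11 for Irf4 to 1.46 for Irf7. Irf7 alone was more than 1 log2 unit higher there, as were 4.16% of all detected genes, and no member was more than 1 lower, as 2.54% were. At the other end, 6 of the 7 members, all but Irf5, lay on replicate 4 below the range of the other arrays, against 32.7% of all detected genes. For Irf7, Irf1 and Irf9 the margin was very small: replicate 4 gave 2.33, 2.17 and 1.04, and replicate 2 gave 2.35, 2.18 and 1.05. The count of 6 was found after scaling by the 75th percentile. Before scaling none of the 7 was below that range and 5 of 7 were above it, against 86.2% of all detected genes.

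The size of these deviations depended on how arrays were scaled. Under quantile normalization the members' median deviation on replicate 1 was 0.43, with the 75th percentile of detected probes it was 0.41 and after normexp correction 0.38. Under each of them 6 of 7 members were higher on replicate 1, although Irf5 was higher by only 0.030 after normexp correction. With no scaling between arrays the median was -0.18 and Irf7 was the only member higher on replicate 1, by 0.79. Unscaled, all detected genes lay at a median of -0.61 on that array. Macrophage markers also lay higher on replicate 1, 5 of 7 with a median deviation of 0.69, and their summed level was 369 times the 75th percentile signal on replicate 1 and 256 to 301 times on the others. The summed level of the plasma cell list was 86.6 on replicate 1 and 21.2 to 31.7 on the others, through Xbp1, the only 1 of its 3 measured genes that was detected. Of the others Prdm1 was lower on replicate 1 (-4.14 against -2.95, -2.32 and -2.68) and well above background on 3 arrays, and Sdc1 was well above background on none. The B cell list summed to 1.23 to 1.499 on the 4 arrays, and no marker of epithelium, fibroblasts or neutrophils was detected on all of them. The part of these differences in the values of the members was not tested.

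Of 30 listed sensors, adaptors and kinases upstream of the factors 24 were measured and 22 of these were detected (91.7%, beside 53.1% of all named genes). The others on the list were not measured by a named probe. The endosomal RNA sensor Tlr3 lay at -0.13, -0.26, -0.024 and -0.032 on replicates 1 to 4, and the endotoxin receptor Tlr4 at 1.49, 0.95, 0.95 and 1.29. Another RNA sensor, Tlr8, read -1.39, -2.54, -1.72 and -1.95. Tlr7 was well above background on 2 arrays and Tlr9 on 3, both of which signal to Irf7 through Myd88. Slc15a4, an endosomal transporter needed for that signalling, read 2.98, 3.61, 2.81 and 1.62. Its spot lay where neighbouring spots deviated by 0.55, 0.46, -0.018 and -1.19 on replicates 1 to 4. The median deviation of the 22 genes on replicate 1 was 0.024, with 12 higher, a value near that of all detected genes.

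The interferon genes that were measured were mostly below background. Of 11 listed ligands only 5 were measured by a named probe. Of these, 4 were well above background on no array, as were 34.4% of all named genes. They were Ifnb1, Ifna2, Ifnk and, chosen after its values were seen, Ifng. Ifna4 was detected at -1.48, -1.25, -1.08 and -1.11, with replicate 1 the lowest. The alpha interferon genes are near copies of each other, so which of them this probe read is uncertain. In contrast, 15 of 17 measured receptor and JAK-STAT genes were detected. The receptor chains Ifngr1 (5.01, 4.67, 4.46 and 4.31), Ifngr2 (3.77, 3.53, 3.70 and 3.44) and Il10rb (3.30, 2.67, 2.77 and 2.55) were highest on replicate 1, whereas Ifnar1, the chain shared by all type I interferons, was lowest there (-0.060 against 1.18, 0.87 and 1.03). The receptor chain Ifnlr1 and the feedback inhibitor Socs1 were well above background on no array. In limma's test Socs1 was nevertheless above the negative controls, whereas Ifnlr1 was not.

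Partners with which the factors bind DNA, and their corepressors, were detected for 9 of 10 measured genes. Spi1 read 3.64, 3.89, 3.77 and 3.84, and its relative Spib read -2.51, -2.08, -2.86 and -2.08. The AP-1 type partners Batf and Batf3 were higher on replicate 1, at -1.45 against -2.01 to -2.21 on the others and at 0.96 against -0.011 to 0.14. Jun, the AP-1 gene of the same list, was lower there, at 2.51 against 3.28 to 3.47. The median deviation of the 9 genes on replicate 1 was 0.060.

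Genes that the factors are known to drive were detected nearly throughout and, like Irf7 and Irf1, were mostly higher on replicate 1. The macrophage markers were mostly higher there too, with a median deviation of 0.69, and a link between factors and targets was not tested. Of 19 measured genes of antigen processing and other interferon-gamma type targets 17 were detected, and their median deviation on replicate 1 was 0.48 with 15 of 17 higher, where 55.8% of all detected genes were higher. The immunoproteasome genes Psmb8 (5.75 on replicate 1, 5.22 to 5.65 on the others), Psmb9 (4.93, and 3.89 to 4.12) and Psmb10 (6.36, and 5.33 to 5.72) and the peptide transporter Tap1 (-0.43, and -1.09 to -0.75) followed this order. Ciita, the activator of class II genes, was well above background on 2 arrays and the chemokine Cxcl11 on 1. Of 25 measured type I interferon targets 23 were detected, with a median deviation of 0.45 and 17 of 23 higher. The antiviral GTPases Mx1 (2.43 on replicate 1, 0.98 to 1.20 on the others) and Mx2 (5.25, and 3.70 to 4.69) were among the higher ones. The spot of Mx2 lay where neighbours deviated by 0.48, 0.33, 0.043 and -0.92 on replicates 1 to 4, so part of its order was shared with the spots around it. The ubiquitin-like Isg15 (2.43, and 2.24 to 2.46) did not stand apart and the exonuclease gene Isg20 was lower (-0.16, and 0.56 to 0.89). Ifit1 was well above background on no array. With no scaling between arrays the median deviations of both target lists were negative, at -0.20 and -0.22, above the -0.61 of all detected genes.

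**Figure D4:**
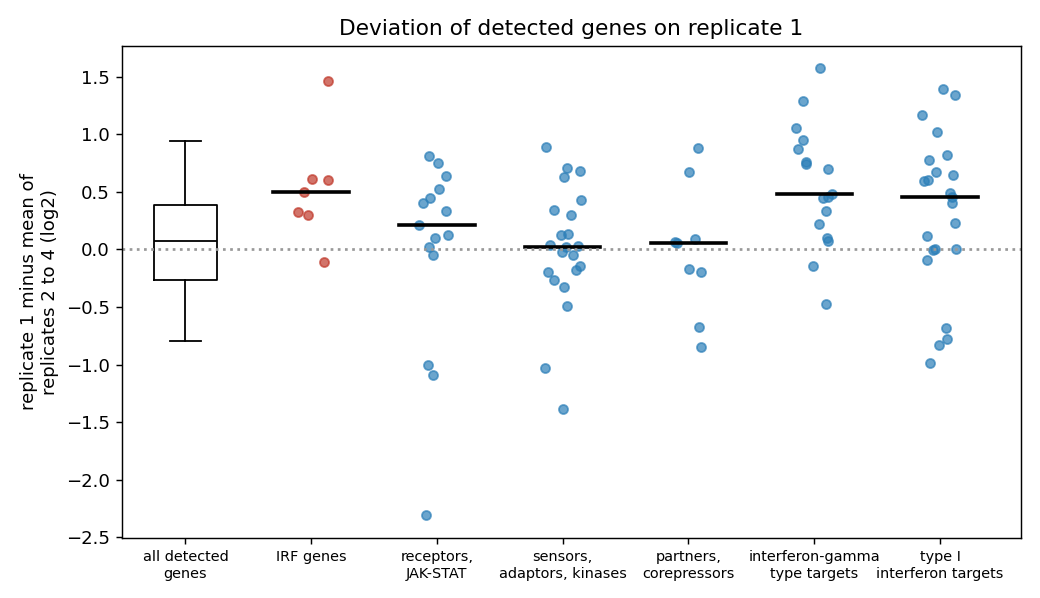
Deviation of replicate 1 from the mean of replicates 2 to 4 (log2 level) for all detected genes (box with median and quartiles, whiskers from the 5th to the 95th percentile) and for the detected genes of each group (points, with the group's median as a line). The 7 interferon regulatory factors have a median of 0.50, the interferon target lists 0.48 and 0.45, and the sensors and partners 0.024 and 0.060.

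The genes whose pattern over the 4 arrays lay nearest to that of a member were sought for the 2 members with an SD above the 75th percentile of detected genes (0.36), Irf7 and Irf1. Nearness was the root mean square distance between deviations from the 4-array mean, over 4 arrays and 8762 genes. Nearest to Irf7 were Rpusd3 at a distance of 0.067, the chromatin assembly gene Chaf1b at 0.094 and the complement receptor C5ar1 at 0.095, where the median gene lay at 0.66. C5ar1, for example, read 4.13, 2.30, 2.91 and 2.49. Nearest to Irf1 were Toe1 at 0.021, the folate enzyme gene Aldh1l1 at 0.034 and the vesicle tethering gene Trappc6a at 0.037, with the median gene at 0.33. None of these belonged to the interferon lists, and with 4 arrays such likeness is a description only.

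The ISRE core was common next to the start of the detected target genes and rarer among the factors. It was present in 13 of 16 promoters of the interferon-gamma type targets (81.2%) and in 12 of 17 of the type I targets (70.6%), beside 1 of 7 of the factors and 3.92% of all promoters. The GAS core was present in 3 of 7 promoters of the factors, in 4 of 7 of their partners and corepressors, in 5 of 16 of the interferon-gamma type targets, in 3 of 17 of the type I targets, in 1 of 11 of the receptors and JAK-STAT genes, in 1 of 19 of the sensors and in 8.87% of all promoters. The list counts cover detected genes that the promoter table held, whereas the 7 factors include Irf8, which was not detected and held the GAS core. No test was made of these counts.

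**Figure D5:**
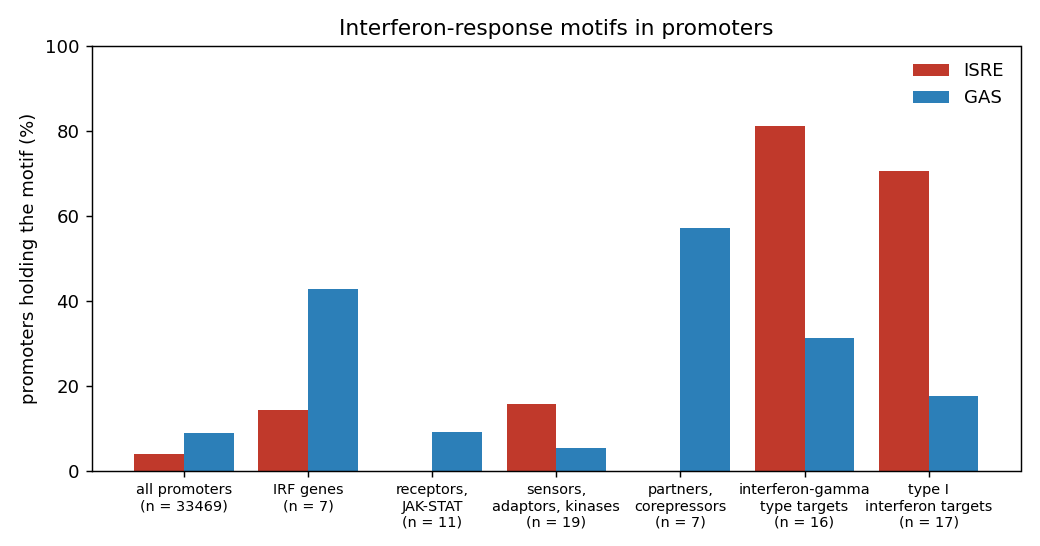
Share of promoters (300 bases, percent) that hold the ISRE core or the GAS core on either strand, for all promoters of the table, for the 7 matched interferon regulatory factors and for the detected genes of each list, with the number of promoters under each bar. ISRE reaches 81.2% and 70.6% in the target lists against 3.92% of all promoters.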

How the data were processed

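Total RNA of 4 replicates of NR8383 cells was labelled with Cy3 and hybridised to 1 slide. Signals were extracted with Agilent Feature Extraction 11.0.1.1, according to the submitters' processing notes. What the authors deposited is, for every spot, a linear intensity after background correction with its error, foreground and background medians, and other columns that hold 0 or 1 flags, without scaling between arrays. Control spots (4259 of 62976) and outlier spots (440 to 1206 per array) were left out. Log2 signals of 1 probe's spots were averaged, leaving 45280 probes, of which 20983 were named from RefSeq accessions (GRCr8, names only). A gene's level is the mean of its detected probes. limma 3.58.1 (R 4.3.3) tested probes one-sided against the 95th percentile of 308 negative control spots. On simulated probes it called 0% of those 0.5 log2 units above that level, 33.5% at 1, 79% at 2 and 97% at 4. Irf8 lay 0.87 (SE 0.38) and the second Irf2 probe 0.24 (SE 0.27) above it, and neither passed. The second Irf4 probe, at 1.29 (SE 0.18), did. The simulation placed 44480 of 45280 probes below that level, whereas on these arrays the test called 69.2% of named genes. The simulated shares therefore do not give the chance of a call for these probes. Pandas 2.3.3 and matplotlib 3.10.9 were used otherwise. The members and the gene lists were chosen with earlier results of these data known. Named list genes are the first 4 detected and first 3 detected on no array of each list, plus those with 1 array apart; Ifng, Tlr7, Tlr9, Jun, Ciita and Cxcl11 were named after their values were seen. Protein sequences were not analysed here. Slide and scan were shared by all arrays. The labels call the replicates biological, and the p-values measure only the spread between these samples. The genome build of the array design in the headers differs from GRCr8, so gene coordinates are given for promoters only. Alternatives were each replicate left out, other detection calls, normexp (offset 50), quantile normalization, other percentiles, other probe rules and, chosen after seeing the data, no scaling and a correction by neighbouring spots.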

Additional observations from a re-analysis of the deposited data

Results flagged for a closer look

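In 9 of 94 detected genes of the family and its pathway lists (9.57%, beside 8.42% of all 8769 detected genes, where chance gives about 5%), 1 array stood apart from the other 3 by Dixon's ratio of gap to range at the 95% critical value. Among the factors this was Irf9 (ratio 0.869), highest on replicate 1, a value carried by 1 of its 2 probes. Also highest on replicate 1 were Batf3 (ratio 0.844), the guanylate-binding protein gene Gbp5 (0.964, with levels of -0.49 and between -1.56 and -1.52), Mx1 (0.845), the tetherin gene Bst2 (0.848, with 5.05 and between 4.39 and 4.49) and Rtp4 (0.887, with 2.74 and between 2.02 and 2.10). Usp18, which restrains type I interferon receptor signalling, was lowest on replicate 1 (ratio 0.973, with 0.97 and between 3.25 and 3.31). The kinase gene Tbk1, which phosphorylates Irf3, was highest on replicate 2 (ratio 0.834, with -1.27 and between -1.77 and -1.69), and the corepressor gene Irf2bp1 was lowest on replicate 4 (ratio 0.907, with 0.11 and between 0.43 and 0.46).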

How the results depend on the processing

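The count of 7 detected members was also 7 without each replicate in turn, with the positive-and-significant flag (which called 66.9% of all named genes), with limma and with detection on at least 3 arrays, each time with Irf8 not called. It was 5 when all probes of a gene had to be detected. The number of members above negative controls in limma's test was 7, also against the 99th percentile of the controls, or 8 without replicate 4. The deviation of Irf7 on replicate 1 ranged from 1.36 to 1.66 when replicates 2, 3 or 4 were left out, and from 1.37 to 1.62 under the other scalings. With no scaling between arrays the median deviations on replicate 1 fell to -0.18 for the members, -0.47 for receptors and JAK-STAT genes, -0.65 for sensors and kinases, -0.62 for partners, -0.20 for interferon-gamma type targets and -0.22 for type I targets. The construction of that setting, which leaves in the lower overall signal of replicate 1, moved all genes together. No paired analysis was possible because there was a single group. Dim signal limits the calls of Irf8 and of the second probes of Irf2 and Irf4.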

Other observations

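Across all detected genes in the promoter table, a promoter with the ISRE core went with a slightly larger deviation on replicate 1. The median was 0.12 in 235 genes with the core and 0.070 in 7081 genes without it, and 60.9% and 55.8% of them were higher on that array. Within the interferon target lists the order was the other way, at 0.46 in 25 genes with the core and 0.70 in 8 without it. Genes are not independent replicates, and these values are a description without a test.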
